A study of Mus musculus with 18 samples.

Results

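The HOX cluster genes are the 39 mouse genes whose symbol, looked up from the Entrez identifier of each file, is Hox followed by a cluster letter from a to d and a number. They are 39 of the 36528 genes listed in each file: 11 in the HOXA cluster on chromosome 6, 10 in HOXB on chromosome 11, 9 in HOXC on chromosome 15 and 9 in HOXD on chromosome 2. Polyadenylated RNA was sequenced from mouse embryonic stem cells, in 18 libraries that form 6 groups of 3. The groups were cells labelled BAP1 wt, the BAP1 knockout line left untreated (BAP1 knockout control), the same line with BAP1 removed (BAP1 knockout), a line carrying the C91A allele of BAP1 left untreated (BAP1 C91A control), that line expressing the mutant (knock-in BAP1 C91A mutant), and cells lacking both genes (RNF2-BAP1 double knockout). The BAP1 knockout, the C91A mutant and the double knockout received 100 nM 4-hydroxytamoxifen, which starts Cre recombination, for 4 days, and all cells were kept in the caspase inhibitor emricasan. The labels do not say whether the wild-type cells received 4-hydroxytamoxifen. An untreated double knockout line was not analysed here, so the effect of losing RNF2 cannot be told apart from differences between that line and the BAP1 knockout line. The labels do not say whether the 3 libraries of a group came from separate cultures, so every p-value below measures the spread between libraries, which may be technical.

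HOX genes encode homeodomain transcription factors that give cells their position along the head-to-tail axis of the embryo. Within a cluster the genes lie in the order of their paralog group, and low-numbered (anterior) genes are switched on earlier and further forward than high-numbered (posterior) ones. In embryonic stem cells the clusters are classic targets of Polycomb repression: Polycomb repressive complex 1 (PRC1), whose catalytic subunit is RNF2 (RING1B), puts ubiquitin on histone H2A, and complex 2 (PRC2) methylates histone H3. BAP1 is the deubiquitinase that removes this ubiquitin from H2A, and the C91A change replaces its catalytic cysteine with alanine.

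Promoter sequences from RefSeq (GRCm38.p6) were available for 22 of the 39 genes, in 24 entries. For each cluster the sequence is shown for a gene that the results below turn on, as the 250 bases before the start, 5′ to 3′ on the gene's own strand, with every CG in capitals, because CG-rich promoters are the usual sites of Polycomb binding. The Hoxa9 sequence lies at chr6:52227371-52227620 on the minus strand, and the other sequences are on the plus strand at chr11:96281655-96281904 (Hoxb8), chr15:103034145-103034394 (Hoxc4) and chr2:74667975-74668224 (Hoxd13). The Hoxb8 and Hoxc4 sequences fall within the RefSeq span of the gene (from 96279401 and 103018097), so they precede an internal start.
Hoxa9: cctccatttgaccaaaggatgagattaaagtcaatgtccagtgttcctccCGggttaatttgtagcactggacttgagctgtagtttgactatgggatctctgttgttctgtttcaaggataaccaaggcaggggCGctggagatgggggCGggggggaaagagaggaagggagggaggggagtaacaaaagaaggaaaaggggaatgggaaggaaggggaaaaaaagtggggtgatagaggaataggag
Hoxb8: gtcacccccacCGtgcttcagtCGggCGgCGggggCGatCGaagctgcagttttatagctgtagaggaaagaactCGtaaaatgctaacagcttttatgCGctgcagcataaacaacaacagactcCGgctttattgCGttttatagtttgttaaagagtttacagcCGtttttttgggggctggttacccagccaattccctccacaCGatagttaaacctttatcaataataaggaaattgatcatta
Hoxc4: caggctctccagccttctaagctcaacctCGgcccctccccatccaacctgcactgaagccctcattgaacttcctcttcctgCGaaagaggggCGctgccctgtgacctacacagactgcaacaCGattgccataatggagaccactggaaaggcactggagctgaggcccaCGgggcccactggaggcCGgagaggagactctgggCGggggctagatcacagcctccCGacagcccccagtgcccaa
Hoxd13: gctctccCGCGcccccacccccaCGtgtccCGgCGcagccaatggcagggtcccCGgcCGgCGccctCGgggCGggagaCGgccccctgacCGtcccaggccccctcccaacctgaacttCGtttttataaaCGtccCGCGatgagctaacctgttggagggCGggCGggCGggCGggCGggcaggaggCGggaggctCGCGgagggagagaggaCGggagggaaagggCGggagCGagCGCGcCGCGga
These sequences hold 3, 12, 8 and 31 CG respectively. Over the 24 entries the median was 12.5 CG (2 to 35), against 6 over all 32851 promoters in the table, and 68.5% of all promoters held fewer CG than the HOX median. The median GC content was 58.6% in the HOX entries and 52.4% in all. The TATA box TATAAA, searched on both strands like the other motifs, was in 4 of 24 entries (Hoxa10, Hoxb8, Hoxd4 and Hoxd13), or 16.7%, against 12.4% of all promoters. AGGTCA, a binding element of retinoic acid receptors, was in 6 entries (Hoxb4, Hoxc4, Hoxd3, Hoxd4, Hoxd8 and Hoxd10), or 25.0%, against 14%. TTTATNG, a motif of caudal (CDX) proteins that can overlap TATAAA read on the other strand, was in 2 entries (Hoxb8 and Hoxd4), or 8.33%, against 9.81%. TGATTNAT, the joint motif of HOX and PBX proteins, was in 2 entries (Hoxa2 and Hoxd11), or 8.33%, against 2.83%. Among the genes without an entry were Hoxb13, most other HOXB genes and all HOXC genes other than Hoxc4.

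Library totals ran from 8.11 M to 23 M counts, and the lowest was a BAP1 knockout library. The 39 HOX genes together took 222 to 364 counts in each wild-type and C91A-line library, 384 to 758 in the knockout line and 1925 to 3596 in the double knockout, so most single genes rest on few counts. Of the 39, 10 share part of their span with another HOX gene (Hoxa3 to Hoxa6, Hoxb3 and Hoxb4, Hoxd3 and Hoxd4, Hoxd10 and Hoxd11), which leaves the split of reads between them uncertain. Another 14, some of them the same genes, overlap a listed non-coding gene of their region. In all 18 of the 39 overlap some such gene and 21 overlap none. The targeted genes were measured over the whole gene, which need not show a deletion of some exons. Bap1 stood at 147 to 151 CPM (counts scaled to a common library size) in the BAP1 knockout against 167 to 170 in its untreated line and 139 to 161 in the double knockout, and at 84.7 to 93.7 in the untreated C91A line against 163 to 166 in the C91A mutant. Rnf2 stood at 70.5 to 77.3 CPM in the double knockout and at 95.2 to 127 in all other libraries. The summed level of 8 embryonic stem cell markers was 2707 to 2837 CPM in wild type, 2169.8 to 2212 in the C91A mutant (the lowest group) and 3529 to 3715 in the double knockout (the highest group), with no marker at 0.

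HOX transcripts were scarce in every group other than the double knockout. On the length-corrected scale (the authors' size-factor-adjusted RPKM, nRPKM), the median HOX gene stood at 0.0804 in wild type, 0.163 in the untreated knockout line, 0.104 in the BAP1 knockout, 0.0798 in the untreated C91A line, 0.0467 in the C91A mutant and 0.945 in the double knockout, where the median of the 16875 genes tested was 5.64. The number of HOX genes at 1 nRPKM or more was 1 in wild type, 3 in the untreated knockout line, 6 in the knockout, 1 in the untreated C91A line, 2 in the C91A mutant and 16 in the double knockout. No HOX gene was above the median tested gene in any group but the double knockout, where 3 were. Among them were Hoxb13 at 11.6 ± 0.383 nRPKM (SD, n = 3) and Hoxc13 at 6.4 ± 0.393. Lower came Hoxd13 at 3.11 ± 0.561 and Hoxb9 at 3.02 ± 0.158 nRPKM, which overlap in their SD. The lowest in the double knockout was Hoxd3 at 0.0757 ± 0.0668, an SD nearly as large as the mean. The mean nRPKM was highest in the double knockout for 38 genes and in the BAP1 knockout for 1, Hoxb8.

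**Figure D1:**
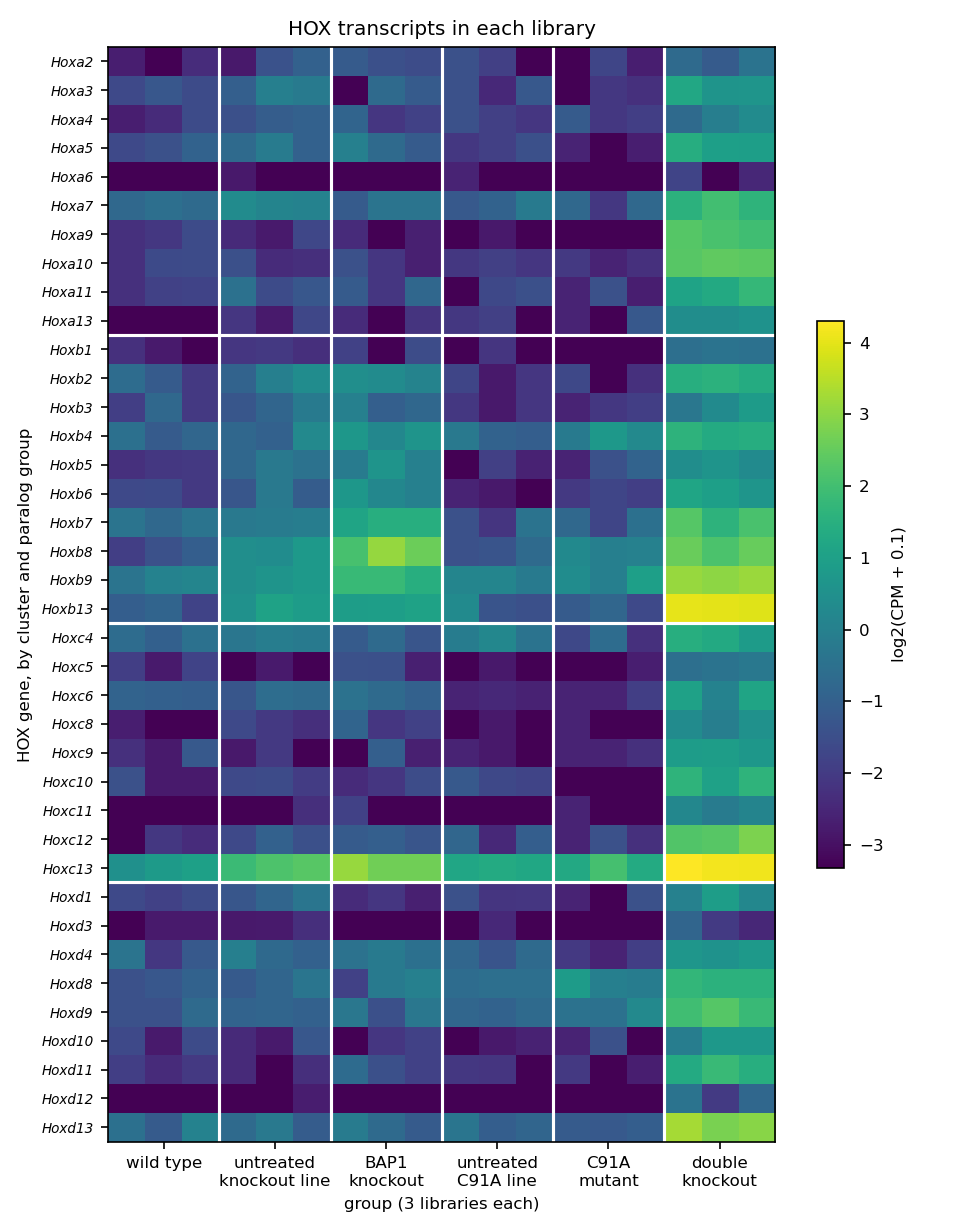
Level of 38 of the 39 HOX genes (rows, by cluster and paralog group) in each of the 18 libraries (columns, 3 per group), as log2(CPM + 0.1). The double knockout columns are the brightest in most rows of all 4 clusters, while Hoxc13 is visible in every library and the Hoxb4 to Hoxb9 block is bright in the BAP1 knockout too.

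Summed over the family, HOX transcripts made up 16.1 ± 1.08 CPM in wild type (SD, n = 3), 32.6 ± 2.69 in the untreated knockout line, 48.5 ± 2.62 in the BAP1 knockout, 15.5 ± 0.599 in the untreated C91A line, 17.1 ± 1.2 in the C91A mutant and 145 ± 5.83 in the double knockout. The double knockout libraries (139 to 150.3) lay above every other library, at 9.03 times the wild-type mean and 3 times the knockout mean. In bulk RNA, more cells with HOX transcripts and more transcripts per cell cannot be told apart. Between double knockout and BAP1 knockout the summed level was 2.55 times as high for HOXA, 2.29 times for HOXB, 3.82 times for HOXC and 7.64 times for HOXD. HOXD stood at 2.96 ± 0.0514 CPM in the knockout, 2.88 ± 0.246 in its untreated line and 2.26 ± 0.744 in wild type, against 21.5 to 23.4 in the double knockout libraries. HOXB moved most between the knockout (17.6 to 21.5) and its untreated line (6.81 to 10.1), ranges that did not overlap. Of the 96.9 CPM that separate the double knockout from the knockout, Hoxb13 held 14.4%, Hoxc13 11.7% and Hoxd13 7.67%.

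**Figure D2:**
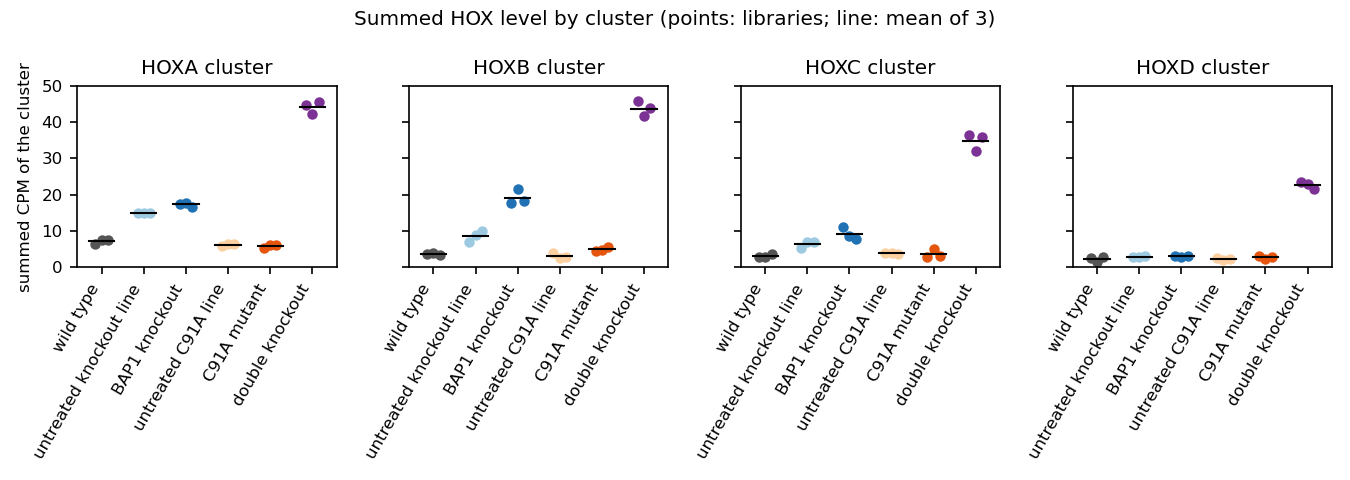
Summed CPM of the genes of each HOX cluster in each library (points), with the mean of 3 libraries (line), for the 6 groups. In all 4 clusters the double knockout libraries lie above the rest, and for HOXB the BAP1 knockout libraries, at 17.6 to 21.5 CPM, stand apart from the 4 remaining groups.

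Loss of RNF2 together with BAP1 went with higher levels across nearly the whole family. In 34 of the 39 genes every double knockout library was above every BAP1 knockout library, against 27.3% of the 24738 genes with a count in either group. The exceptions were Hoxa6, Hoxb3, Hoxb5, Hoxb6 and Hoxb8. Against wild type the number was 38 of 39 (all but Hoxa6, with 5 counts in the double knockout and 0 in wild type), where 21.5% of genes with a count did so. In 32 genes the double knockout libraries lay above all 15 other libraries, against 4.65% of genes, and no HOX gene was lower in every double knockout library than in the knockout or the wild type.

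A difference was called where edgeR's quasi-likelihood test gave a Benjamini-Hochberg adjusted p under 0.05 over all genes tested. Of the 39 genes 35 passed the filter on low counts, 19 of them only through the double knockout libraries, and Hoxa2, Hoxa6, Hoxd3 and Hoxd12 did not pass. Among the 16 that passed without those libraries, 13 rose and 0 fell between knockout and double knockout, where 32.6% of the 16875 genes tested were called higher and 30.6% lower. With no filter, 34 of all 39 were called higher and 0 lower, against 21.1% of 27292 genes called higher, with a median log2 fold change of 2.50 over the family and 0.07 over all genes. Against wild type, 16 of the 16 rose (26.2% of genes tested were called higher and 27.1% lower), and with no filter 37 of 39 were called higher (16.1%), with a median of 3.24, or 3.19 with the 4 genes at 0 in wild type at their bounds. The genes not called against wild type with no filter were Hoxa6 and Hoxd3. The comparisons with the knockout and with wild type share the double knockout libraries.

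Pooled over the 4 clusters, the difference from the knockout was larger for the posterior genes, though not in each cluster. With no filter, the median log2 fold change was 1.56 over the 8 genes of paralog groups 1 to 3 (7 called), 1.76 over the 15 genes of groups 4 to 8 (11 called) and 3.81 over the 16 genes of groups 9 to 13 (16 called). In HOXB the no-filter value instead went from 1.86 at Hoxb1 to -0.17 at Hoxb8 and was 3.05 at Hoxb13, and in HOXC the last gene, Hoxc13, had the smallest value of the 9 (1.39). By cluster the median was 2.57 for HOXA, 0.995 for HOXB, 2.55 for HOXC and 3.51 for HOXD. The fitted value of a gene at 0 in the knockout (Hoxa6, Hoxd3 and Hoxd12) depends on the prior count. With these 3 at their lower bounds the medians were 1.26, 1.72 and 3.65 for the 3 position classes, 2.50 for HOXA, 2.67 for HOXD and 2.13 for the family. Across the 39 genes, which share libraries and are not independent, Spearman's rho between paralog group number and log2 fold change was 0.514 for the double knockout against the knockout and 0.752 against wild type. It was 0.07 for the knockout against its untreated line and 0.17 for the C91A mutant against its own. Low counts in the reference groups make many single fold changes imprecise, at both ends of the clusters. In the knockout, Hoxa9 had 2 counts and the anterior Hoxd1 had 3, while the posterior Hoxc13 had 246.

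**Figure D3:**
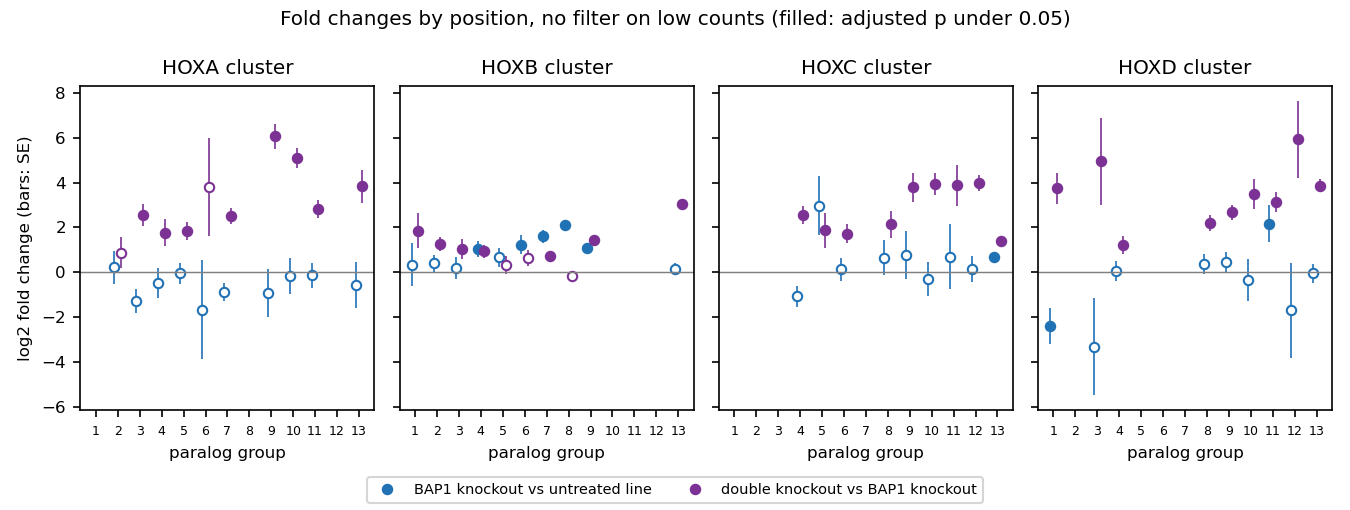
Log2 fold change with its SE (bars) for 38 of the 39 HOX genes against paralog group, in 4 panels by cluster, from the edgeR fit with no filter on low counts; filled points have an adjusted p under 0.05. The double knockout points are highest at Hoxa9 in HOXA and Hoxd12 in HOXD, and in HOXC they are higher at groups 9 to 12 than at group 13. In HOXB the knockout points lie above the double knockout points at groups 4 to 8.

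The posterior genes, which pattern the trunk, tail and limb, gave the largest differences. Hoxa9 and Hoxa10 passed the filter only through the double knockout libraries, where they are high. Their adjusted p-values therefore lend no support of their own. Hoxa9, a posterior gene of HOXA, read 3.84, 4.26 and 4.77 CPM in the double knockout, 0, 0.0601 and 0.0900 in the knockout and 0.110, 0.135 and 0.238 in wild type. The double knockout libraries were far above both groups, and the knockout held only 2 counts in all (74.4-fold, 95% interval 20.4 to 618, counting error only; log2 fold change 6.07, SE 0.52, adjusted p = 3.76e-13). Hoxa10, its neighbour, read 4.9, 5.1 and 5.34 CPM in the double knockout and 0.0601, 0.132 and 0.270 in the knockout (log2 fold change 5.10, SE 0.40, adjusted p = 1.59e-14). Its highest library outside the double knockout, at 0.270 CPM, was itself a knockout library. Hoxa13, the last gene of HOXA, had 0 counts in wild type and 1.23, 1.24 and 1.39 CPM in the double knockout, at least 26.7-fold higher (floor of 3 counts over the group). Hoxc11 was likewise at 0 in wild type and at least 19.4-fold higher, and Hoxd12 at 0 in wild type and in the knockout, at least 9.15-fold higher and at least 5.27-fold higher respectively. Each at-least value, here and below, sets the group at 0 to 3 counts and takes the other group's count as it stands. Counting error in that other group and the spread between libraries are not covered. Hoxa6 (at least 1.91-fold higher than wild type) and Hoxd3 (at least 2.41-fold higher than the knockout) are near the limit of detection.

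Group 13, the most posterior paralogs, shows how unlike the starting points were. Hoxb13 read 15.2, 15.9 and 16.3 CPM in the double knockout, 1.8, 1.85 and 1.98 in the knockout, 1.36, 1.74 and 2 in the untreated knockout line and 0.190, 0.385 and 0.451 in wild type. The difference from the knockout (log2 fold change 3.05, SE 0.21, adjusted p = 1.40e-16) was smaller than that from wild type (log2 fold change 5.50, SE 0.24, adjusted p = 3.71e-22), and the knockout overlapped its untreated line. Hoxc13 read 17.6, 17.8 and 19.7 CPM in the double knockout against 6.19, 6.21 and 8.64 in the knockout (log2 fold change 1.39, SE 0.14, adjusted p = 4.62e-11) and 1.32, 1.67 and 1.9 in wild type. It had counts in every library of all 6 groups. Hoxd13 read 6.78, 7.59 and 9.61 CPM in the double knockout, 0.361, 0.528 and 0.810 in the knockout and 0.361, 0.604 and 0.952 in wild type, and its 5 other groups overlapped (log2 fold change 3.87, SE 0.30, adjusted p = 9.81e-15).

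The rest of HOXC and HOXD followed. Hoxc10, Hoxc12 and Hoxd11 also passed the filter only through the double knockout libraries, so their adjusted p-values lend no support of their own. Hoxc12 read 4.57, 4.91 and 6.86 CPM in the double knockout against 0.301, 0.360 and 0.396 in the knockout (log2 fold change 3.99, SE 0.37, adjusted p = 2.22e-12) and 0, 0.0952 and 0.135 in wild type (log2 fold change 5.97, SE 0.41, adjusted p = 5.38e-16). Hoxc10 read 1.95, 3.01 and 3.02 against 0.0900, 0.132 and 0.241 CPM (log2 fold change 3.94, SE 0.47, adjusted p = 2.66e-09), and Hoxc11 0.794, 0.980 and 1.05 against 0, 0 and 0.180, the knockout value being 2 counts in 1 library (16.8-fold, 95% interval 4.42 to 142). None of these 3 genes had a double knockout library within the range of the knockout. Hoxd9 read 3.47, 3.79 and 4.84 CPM in the double knockout and 0.264, 0.720 and 0.722 in the knockout (log2 fold change 2.67, SE 0.31, adjusted p = 1.09e-09), and Hoxd11, at 2.42, 2.65 and 3.46 against 0.180, 0.264 and 0.540, gave log2 fold change 3.14, SE 0.43, adjusted p = 3.21e-08. The anterior HOXD gene Hoxd1 also rose, from 3 counts in the knockout to 65 (14.3-fold, 95% interval 4.67 to 71). The remaining HOXC and HOXD genes with a call had log2 fold changes from 1.21 (Hoxd4) to 3.81 (Hoxc9). Hoxc5, Hoxc6, Hoxc8, Hoxc9, Hoxc11, Hoxd1 and Hoxd10 passed the filter only through the double knockout libraries too. Their calls lend no support of their own either.

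The middle HOXB genes moved less. Hoxb5, Hoxb6 and Hoxb8, which act in the cervical and thoracic trunk, were the tested genes not called higher than in the knockout. Hoxb8 read 4.33, 5.68 and 5.82 CPM in the double knockout and 4.14, 5.95 and 8.45 in the knockout, overlapping ranges (log2 fold change -0.17, SE 0.19, adjusted p = 0.446). Hoxb5 gave log2 fold change 0.33, SE 0.37, adjusted p = 0.450 and Hoxb6 log2 fold change 0.65, SE 0.33, adjusted p = 0.0826. A missed threshold does not show equal levels: the ratio of summed counts had a 95% counting interval of 0.757 to 1.09 for Hoxb8, 0.825 to 1.96 for Hoxb5 and 1.07 to 2.32 for Hoxb6. Against wild type all 3 were higher, Hoxb8 by the most (log2 fold change 4.23, SE 0.30, adjusted p = 1.49e-15). In the other HOXB genes the difference from the knockout ran from 0.71 (Hoxb7) to 3.05 (Hoxb13). In HOXA, Hoxa3, Hoxa4, Hoxa5, Hoxa7 and Hoxa11 rose by 1.78 (Hoxa4) to 2.83 (Hoxa11). All of these but Hoxa7, and Hoxb1 and Hoxb3 in HOXB, passed the filter only through the double knockout libraries. Their calls lend no support of their own.

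Of the 13 calls among the 16 genes that passed the filter without the double knockout libraries, 12 held in every setting tested and Hoxb7 lost its call in some. Hoxa4, Hoxb1, Hoxb3 and Hoxc5, which passed only through those libraries, lost theirs in some settings too. Hoxb3 had an adjusted p of 0.305 without double knockout library 3 and 0.157 with DESeq2. With DESeq2 the adjusted p was also 0.0592 for Hoxb7, 0.0917 for Hoxb1 and 0.0967 for Hoxc5. Hoxa4 had 0.0528 without double knockout library 3, Hoxb1 0.0563 and Hoxb3 0.0977 without knockout library 2, Hoxc5 0.11 and Hoxb3 0.171 without knockout library 3, and Hoxb7 0.0714 without knockout library 1, 0.0745 without double knockout library 1 and 0.0551 without double knockout library 3.

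Markers of other cell types also differed in the double knockout, and their part in the HOX levels was not tested. Against the knockout, 32.6% of all genes tested were called higher and 30.6% lower, and some lists lie near those shares. Of the 8 stem cell markers 6 were called higher and 1 lower, with 3529 to 3715 CPM summed against 2934 to 3069. Of 4 tested endoderm markers 3 were called higher than in the knockout (Gata6, Gata4 and Sox17), with a summed level of 34 to 36.3 CPM against 11.1 to 12.2 and Ttr at 0 in both groups. Of 8 tested fibroblast markers 4 were higher and 1 lower, with 75.9 to 78.5 CPM against 46.1 to 50 and Lum at 0 in the double knockout. All 5 tested trophoblast markers were higher, with 53.8 to 67.6 CPM against 32.8 to 36.9 and Tpbpa at 0. Of 3 tested mesoderm markers 1, Tcf15, was higher, with 41.6 to 49.4 CPM against 9.56 to 12.2 and no member at 0 in the double knockout. Neural markers stood at 123 to 132 against 119 to 127 CPM, with 1 of 6 tested higher and 1 lower. In wild type the summed level was 13.4 to 16.2 CPM for endoderm, 42.2 to 44.7 for fibroblast, 87.8 to 92.5 for trophoblast and 37.3 to 38.8 for mesoderm. For neural markers it was 102 to 106 CPM. Of 6 tested, 5 were called higher in the double knockout than in wild type and 0 lower (26.2% and 27.1% of all genes tested).

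After removal of BAP1 alone, genes in the middle of HOXB were higher. Against the untreated line, 9 of the 35 tested HOX genes were called higher and 2 lower, where 31.3% of genes tested were called higher and 30.3% lower. Among the 16 genes that passed the filter without the double knockout libraries, which this comparison does not use, 7 were higher and 1 lower. In HOXB 5 of the 10 genes were called higher and 0 lower (Hoxb4, Hoxb6, Hoxb7, Hoxb8 and Hoxb9). Hoxb8 read 4.14, 5.95 and 8.45 CPM in the knockout against 1.21, 1.27 and 1.63 in the untreated line (log2 fold change 2.13, SE 0.23, adjusted p = 1.39e-10) and 0.165, 0.271 and 0.381 in wild type. It alone held 30.3% of the 15.9 CPM that the family gained. Hoxb7 read 2.07, 2.64 and 2.65 against 0.747, 0.793 and 0.843 CPM (log2 fold change 1.62, SE 0.31, adjusted p = 1.96e-05), and Hoxb9 2.65, 3.42 and 3.43 against 1.27, 1.45 and 1.63 (log2 fold change 1.09, SE 0.23, adjusted p = 9.24e-05). Neither gene's groups overlapped. Hoxb6 read 0.902, 1.06 and 1.53 against 0.307, 0.369 and 0.746 CPM (log2 fold change 1.25, SE 0.40, adjusted p = 0.00608), and Hoxb4 1.06, 1.44 and 1.53 against 0.420, 0.483 and 1.11 with overlap (log2 fold change 1.07, SE 0.36, adjusted p = 0.0102). At the posterior end Hoxb13 was not called (log2 fold change 0.16, SE 0.27, adjusted p = 0.634).

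**Figure D4:**
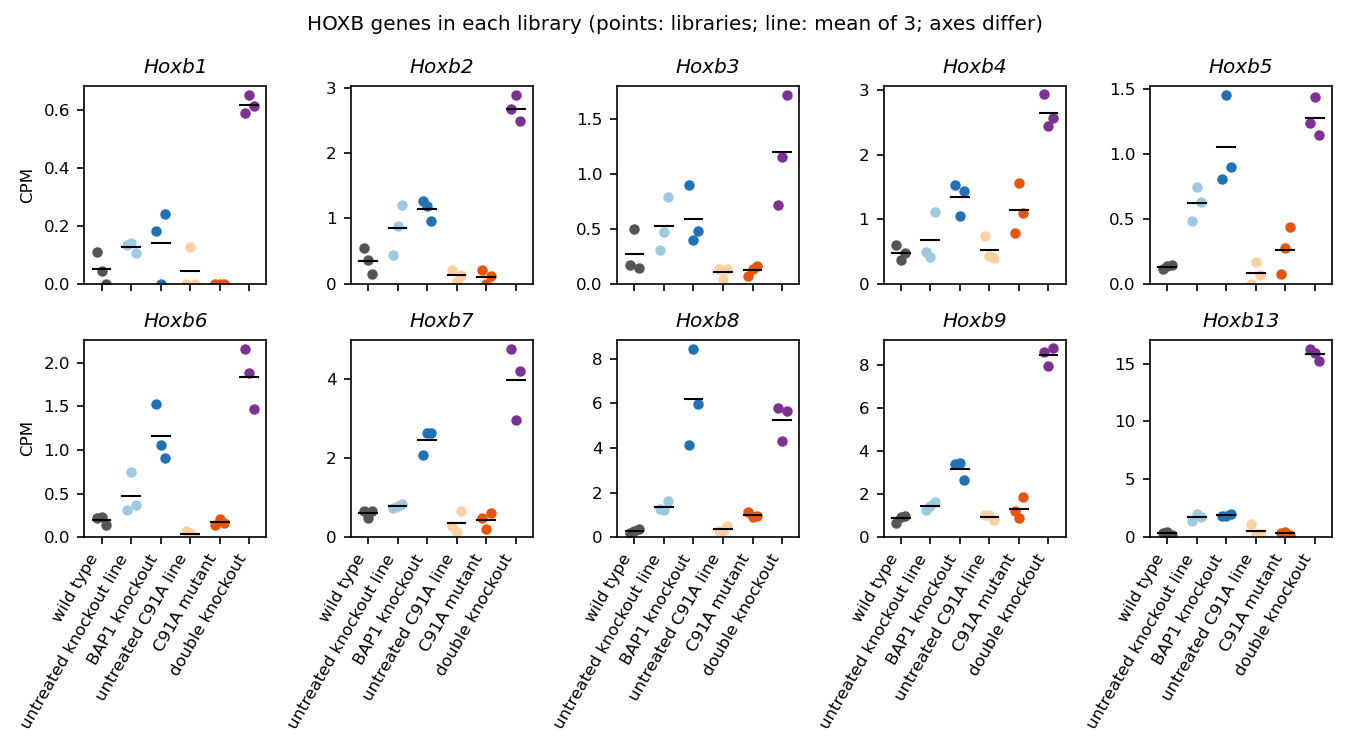
CPM of the 10 HOXB genes in each library (points) with the mean of 3 (line), by group; each panel has its own axis from 0. Hoxb6, Hoxb7, Hoxb8 and Hoxb9 are higher in every BAP1 knockout library than in its untreated line, and of the 10 genes Hoxb8 alone has a knockout mean above the double knockout mean.

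Outside HOXB, Hoxc13 rose from 3.56, 4.43 and 4.9 CPM in the untreated line to 6.19, 6.21 and 8.64 (log2 fold change 0.71, SE 0.17, adjusted p = 3.50e-04), without overlap. Hoxc5 and Hoxd11 were called higher on very few counts. Hoxc5 had 1 count in the untreated line and 6 in the knockout (10.7-fold, 95% interval 1.3 to 494), and Hoxd11 had 4 and 11 (4.92-fold, 95% interval 1.46 to 21.2). Hoxd1 fell from 30 counts, 0.307, 0.466 and 0.685 CPM, to 3 counts, 0.0601, 0.0900 and 0.132 CPM (0.179-fold, 95% interval 0.0349 to 0.575; log2 fold change -2.39, SE 0.77, adjusted p = 0.00675). Hoxc4 fell from 0.703, 0.791 and 0.839 to 0.301, 0.360 and 0.528 CPM (log2 fold change -1.05, SE 0.47, adjusted p = 0.0488). For both falling genes the knockout libraries lay below the untreated ones. The median log2 fold change over all genes of a cluster, from the fit with no filter, was -0.46 for HOXA, 0.86 for HOXB, 0.66 for HOXC and -0.05 for HOXD, against -0.02 over all genes. With genes at 0 in either group at their bounds it was -0.16 for HOXA and 0.07 for HOXD, so the sign for HOXD is not fixed.

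Calls for Hoxb7, Hoxb8, Hoxb9 and Hoxc13 held in every setting tested, and those of Hoxb4, Hoxb6, Hoxc4, Hoxc5, Hoxd1 and Hoxd11 did not. Hoxc4 had an adjusted p of 0.0994 with DESeq2 and up to 0.209 without 1 library (knockout library 3), and Hoxd11 reached 0.171 without knockout library 1, Hoxc5 0.123 without the same library and Hoxb6 0.0646. Hoxb4 reached 0.0633 without untreated library 2 and Hoxd1 0.0583 without knockout library 3. Without knockout library 1 the family had 6 genes higher and 1 lower in place of 9 and 2. In the knockout, 3 of 8 tested fibroblast markers were higher (46.1 to 50 CPM summed against 24.8 to 25.4 in the untreated line) and all 4 tested endoderm markers were higher (11.1 to 12.2 against 6.63 to 7.91, Ttr at 0 in both). Among all genes tested, 31.3% were called higher and 30.3% lower. Of the 8 stem cell markers 7 were lower and 1 higher in the knockout (2934 to 3069 CPM summed against 3451 to 3550). The summed mesoderm markers stood at 9.56 to 12.2 against 42 to 45.5 CPM. Only 1 of the 3 tested was called lower and 0 higher, with a median log2 fold change of -0.16. The part of other cell types in these levels was not tested.

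The catalytic mutant gave fewer calls. In the C91A mutant 3 of 35 tested HOX genes were called higher and 3 lower than in the untreated C91A line (3 and 2 of the 16), where 28.6% of genes tested were called higher and 26.4% lower. Hoxb8 again rose, from 0.271, 0.297 and 0.521 CPM to 0.886, 0.931 and 1.13, without overlap (log2 fold change 1.45, SE 0.42, adjusted p = 0.00327). Hoxb4 rose from 0.390, 0.425 and 0.745 to 0.780, 1.09 and 1.57 CPM (log2 fold change 1.17, SE 0.39, adjusted p = 0.00952), and Hoxd8 from 0.542, 0.586 and 0.595 to 0.821, 0.886 and 1.7 (log2 fold change 0.94, SE 0.38, adjusted p = 0.0343). Hoxc4 fell from 0.651, 0.813 and 1.06 to 0.109, 0.213 and 0.545 CPM (log2 fold change -1.62, SE 0.46, adjusted p = 0.00281) and Hoxd4, a middle HOXD gene that overlaps Hoxd3, from 0.297, 0.474 and 0.521 to 0.0682, 0.142 and 0.164 (log2 fold change -1.64, SE 0.65, adjusted p = 0.0307). Both had every mutant library below every untreated one. Hoxc10 had 13 counts in the untreated line, 0.195, 0.212 and 0.339 CPM, and 0 in the mutant, at least 3.8-fold lower. Hoxb7 (log2 fold change 0.47, SE 0.52, adjusted p = 0.462), Hoxb9 (log2 fold change 0.51, SE 0.29, adjusted p = 0.136) and Hoxc13 (log2 fold change 0.35, SE 0.22, adjusted p = 0.167), which rose on BAP1 removal, were not called here.

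Hoxb4, Hoxd4 and Hoxd8 lost the call in some settings. Hoxd8 had an adjusted p of 0.291 without mutant library 1, between 0.0632 and 0.073 without each untreated library, and 0.0713 with DESeq2. Hoxd4 had 0.106 without mutant library 2, 0.0564 without mutant library 1, 0.0675 and 0.0885 without untreated libraries 1 and 3, and 0.0549 with DESeq2, and Hoxb4 0.0819 without mutant library 2 and 0.0565 without untreated library 2. In the mutant the summed fibroblast markers stood at 56.5 to 57.2 CPM against 22.7 to 23.8, with 4 of 8 tested higher and 1 lower and none at 0, and the 8 stem cell markers were all lower. Among all genes tested, 28.6% were called higher and 26.4% lower. The trophoblast markers stood at 192 to 209 against 176 to 178 CPM, with 2 of 5 tested higher and 2 lower and Tpbpa at 0. The summed mesoderm markers stood at 12.9 to 14.3 against 35.1 to 36.6 CPM, with 0 of 3 tested higher and 1 lower (median log2 fold change -0.15). The part of these markers' cell types in the HOX levels was not tested.

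The difference between the effects of removing BAP1 and of mutating it was tested directly. Of the 35 HOX genes tested 1 was called, Hoxc10, and 0 were called the other way, where 12.2% of genes tested were called with a higher and 13.8% with a lower knockout effect. Hoxc10 stood at 13 counts in the untreated knockout line and 6 in the knockout, against 13 and 0 in the C91A line (log2 fold change 4.85, SE 1.68, adjusted p = 0.0284). This call rested on single libraries: the adjusted p was 0.127 without knockout library 3, 0.0545 without mutant library 1, 0.0611 without mutant library 2 and 0.0717 without mutant library 3. For the genes that rose on BAP1 removal the difference did not pass the test, with Hoxb8 at log2 fold change 0.69, SE 0.52, adjusted p = 0.360, Hoxb7 at log2 fold change 1.16, SE 0.63, adjusted p = 0.178 and Hoxb9 at log2 fold change 0.59, SE 0.38, adjusted p = 0.268. The calls in the knockout that were missing in the mutant are therefore not shown to be particular to the knockout.

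HOX levels already differed between lines before treatment. The untreated knockout line had 13 of 35 tested HOX genes called higher than wild type and 0 lower (9 and 0 of the 16 that passed without the double knockout), where 18.5% of genes tested were called higher and 20.8% lower. Hoxb13 read 1.36, 1.74 and 2 CPM against 0.190, 0.385 and 0.451 (log2 fold change 2.29, SE 0.35, adjusted p = 8.76e-07). Hoxb8 gave log2 fold change 2.27, SE 0.38, adjusted p = 4.57e-06, Hoxb5 log2 fold change 2.19, SE 0.54, adjusted p = 0.00110 and Hoxc13 log2 fold change 1.37, SE 0.20, adjusted p = 3.10e-07. Those 4 genes kept the call in every setting tested and had no overlap between the groups. Hoxa13 had 0 counts in wild type and 8 in the untreated line, at least 2.59-fold higher, and Hoxc8 1 and 10 (9.71-fold, 95% interval 1.38 to 422). Calls of Hoxa3, Hoxa7, Hoxa13, Hoxb2, Hoxb6, Hoxb9, Hoxc8 and Hoxc12 were lost in some settings, and DESeq2 called 7 genes in place of 13. Leaving out 1 library gave 8 without wild-type library 1, 7 without wild-type library 3 and 8 without untreated library 2 or 3. Because of these starting differences, part of the gap between the knockout or double knockout and wild type cannot be told apart from a difference between lines.

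The untreated C91A line had 1 HOX gene called higher than wild type and 2 lower, where 13.4% of genes tested were called higher and 14.2% lower. Hoxc6, a thoracic gene, read 0.0651, 0.0678 and 0.0850 CPM against 0.381, 0.406 and 0.440, without overlap (log2 fold change -2.35, SE 0.66, adjusted p = 0.00638). It kept the call in every setting that tested it, which leaves out the fit of only these 2 groups. Hoxa13 had 6 counts against 0 (at least 2.29-fold higher), and Hoxa9 had 1 count against 10 (0.114-fold, 95% interval 0.00264 to 0.804). Both lost the call in several settings, with an adjusted p up to 0.186 for Hoxa13 (without untreated C91A library 2) and 0.159 for Hoxa9 (without wild-type library 3), and DESeq2 called 1 gene in place of 3. With only these 2 groups in the fit 0 were called and 1 had an unadjusted p under 0.05. Leaving out wild-type library 1, wild-type library 2 or untreated C91A library 1 left 1 call each.

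Some non-coding genes inside the clusters were also higher in the double knockout, while the protein-coding genes just outside went either way. In 7 of 23 inside genes listed in the files the double knockout lay above all other libraries, against 4.65% of all genes with a count. Of the 4 with enough counts to test, Gm30134 and Gm53 passed the filter without the double knockout libraries. Mira and Hoxa11os passed only through the double knockout, where they are high, so their calls lend no support of their own. Hoxa11os, the antisense transcript of Hoxa11, read 2.35 to 3.43 CPM against 0 to 0.450 (log2 fold change 3.14, SE 0.44, adjusted p = 4.68e-08) and Mira, between Hoxa6 and Hoxa7, 1.27 to 2.02 against 0.132 to 0.421 (log2 fold change 2.46, SE 0.46, adjusted p = 1.33e-05). In HOXB, Gm30134 read 2.74 to 4.05 against 0.792 to 1.14 CPM (log2 fold change 1.82, SE 0.31, adjusted p = 2.07e-06) and Gm53 4.51 to 4.98 against 0.990 to 1.85 (log2 fold change 1.78, SE 0.27, adjusted p = 2.36e-07). The kit does not mark strand, so reads in the stretch that Hoxa11 and Hoxa11os share cannot be told apart. Spans are also shared by Gm36878 with Hoxc9 and by Gm38462 with Hoxd3 and Hoxd8, and both are among the 7. Of the protein-coding genes next to the clusters, up to 2 beyond each end, 15 were listed and 13 tested: 2 were higher than in the knockout, Calcoco2 (log2 fold change 2.44, SE 0.12, adjusted p = 6.87e-21) and Ttll6 (log2 fold change 0.85, SE 0.13, adjusted p = 2.76e-07), both before HOXB, and 5 were lower, where 32.6% of all genes tested were higher and 30.6% lower. In none of the 15 did the double knockout lie above all other libraries. Evx1, a homeobox gene beside HOXA with too few counts to test, had 32 counts in the double knockout, 1 in the knockout, 17 in its untreated line and 28 in wild type. In the knockout against its untreated line, none of the 4 inside genes was called and the flanks were mixed, with 4 called higher and 3 lower of 13, beside 31.3% and 30.3% of all genes tested.

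The partners and inducers of HOX genes did not move as a block. The counts below stand against 31.3% of all genes tested called higher and 30.3% lower in the knockout, 28.6% and 26.4% in the C91A mutant, and 32.6% and 30.6% in the double knockout against the knockout, and several lists lie near those shares. Of 11 TALE cofactors, the homeodomain proteins that bind DNA together with HOX proteins, 5 rose and 2 fell in the knockout, 6 rose and 0 fell in the C91A mutant, and 3 rose and 6 fell between knockout and double knockout. The list's median log2 fold change was 0.34, 0.25 and -0.32 in these comparisons, against -0.01, -0.01 and 0.03 over all genes. Meis2 went from 1.25 CPM in the untreated line to 6.09 in the knockout (log2 fold change 2.25, SE 0.23) and from 0.444 to 2.02 in the C91A pair (log2 fold change 2.12, SE 0.34), and stood at 8.95 in the double knockout and 0.445 in wild type. Meis1 fell on BAP1 removal (log2 fold change -0.84, SE 0.22) and was higher in the double knockout than in the knockout (log2 fold change 2.07, SE 0.19), while Pbx3 went the opposite way (log2 fold change 0.88, SE 0.08, then log2 fold change -1.57, SE 0.09). Of 17 tested genes of the retinoic acid pathway, the signal that switches on anterior HOX genes, 4 rose and 4 fell in the knockout, 6 rose and 4 fell in the mutant, and 7 rose and 3 fell between knockout and double knockout. The list's median log2 fold change was -0.04, 0.02 and 0.41 in these comparisons, against -0.01, -0.01 and 0.03 over all genes. Stra8, a gene induced by retinoic acid, stood at 56.4 CPM in the double knockout against 2.95 in the knockout (log2 fold change 4.28, SE 0.12), and Rxrg, a receptor, and Stra6, a carrier of its precursor, also rose (log2 fold change 2.60, SE 0.63; log2 fold change 2.56, SE 0.32). Of 10 caudal and axial inducers 2 rose and 3 fell in the knockout, 5 rose and 1 fell in the mutant, and 2 rose and 1 fell between knockout and double knockout. The list's median log2 fold change was -0.37, 0.64 and 0.56 in these comparisons, against -0.01, -0.01 and 0.03 over all genes. Cdx2 and Cdx1, caudal proteins that act on middle and posterior HOX genes, rose in the double knockout (log2 fold change 2.43, SE 0.44; log2 fold change 2.35, SE 0.23), and Wnt3 fell (log2 fold change -0.74, SE 0.11) after rising in the knockout (log2 fold change 1.48, SE 0.12).

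Among chromatin regulators of the clusters, read against the same shares of all genes, 10 of 21 PRC1 genes rose and 4 fell in the knockout, 8 rose and 2 fell in the C91A mutant, and 6 rose and 6 fell between knockout and double knockout. The list's median log2 fold change was 0.14, 0.07 and 0.06 in these comparisons, against -0.01, -0.01 and 0.03 over all genes. Cbx8, Scml2 and Cbx2 rose in the double knockout (log2 fold change 2.66, SE 0.30; log2 fold change 1.73, SE 0.19; log2 fold change 0.82, SE 0.06). Of 12 PRC2 genes 2 rose and 7 fell in the knockout, 3 rose and 6 fell in the mutant, and 7 rose and 4 fell between knockout and double knockout. The list's median log2 fold change was -0.18, -0.21 and 0.25 in these comparisons, against -0.01, -0.01 and 0.03 over all genes. Jarid2 and Suz12, subunits of PRC2, fell in the knockout (log2 fold change -0.70, SE 0.05; log2 fold change -0.51, SE 0.06) and were higher in the double knockout than in the knockout (log2 fold change 0.78, SE 0.05; log2 fold change 0.71, SE 0.06). Of 17 MLL and trithorax genes, which keep HOX genes active, 5 rose and 5 fell in the knockout, 5 rose and 8 fell in the mutant, and 7 rose and 6 fell between knockout and double knockout. Their median log2 fold change was -0.05, -0.09 and -0.05 in these comparisons, against -0.01, -0.01 and 0.03 over all genes. Of 11 BAP1 complex genes 6 rose and 4 fell, 5 rose and 1 fell, and 4 rose and 5 fell in the same comparisons. Their median log2 fold change was 0.17, 0.08 and -0.18 in these comparisons, against -0.01, -0.01 and 0.03 over all genes. Mbd6 went from 171 to 397 CPM on BAP1 removal (log2 fold change 1.22, SE 0.05) and stood at 188 in the double knockout (log2 fold change -1.08, SE 0.05).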

How the data were processed

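Polyadenylated RNA of 18 libraries was sequenced as single-end 50 base reads on a HiSeq4000 after TruSeq RNA v2 preparation, per the labels' protocols. The authors aligned reads with GSNAP to GRCm38 and deposited, for each Entrez gene, the count of uniquely aligned reads and a size-factor-adjusted RPKM (nRPKM). The kit does not mark strand, and no label says whether counting used strand. Symbols came from RefSeq by Entrez identifier. Counts were tested with edgeR 4.0.16 in R 4.3.3 (TMM factors, filterByExpr by group, quasi-likelihood test, all 18 libraries in 1 fit, Benjamini-Hochberg adjustment over 16875 genes, threshold 0.05). The fit was also run on simulated data, with changes set only in genes above a floor on total counts. That run does not speak for calls that rest on very few counts. CPM used TMM-scaled library sizes, and the SE was the log2 fold change over the root of F. Intervals on summed counts cover counting error only. The alternatives were RLE factors, the authors' size factors, no filter, only the compared groups, each library left out, and DESeq2 1.42.0. Library-level values were given for the 10 genes with the highest group mean CPM and for up to 3 called genes with the largest change in each direction and comparison, and of other genes Bap1, Rnf2, genes in or next to the clusters and up to 3 called members per list were named. The members and lists were chosen with earlier results of these data known. Values of some single genes are not reported here, although counts and sums include them.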

Additional observations from a re-analysis of the deposited data

Results flagged for a closer look

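The effect of removing BAP1 on Hoxc10 minus the effect of mutating it was 4.85 on the log2 scale by edgeR, with an adjusted p of 0.028, which marked it as a difference between the effects in the 2 lines. It rests on 13 counts in each untreated line, 6 in the BAP1 knockout and 0 in the C91A mutant, so the fitted size depends on the prior count and is no bound. The call was lost without knockout library 3 or without any 1 mutant library, as given above, and its cause was not tested.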

How the results depend on the processing

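No HOX call changed direction under any alternative run. The number of HOX genes called higher or lower stayed within 1.5 times its value for the BAP1 knockout (11) except without knockout library 1 (7), so that leaving out 1 library gave 7 to 11. For the C91A mutant (6) leaving out 1 library gave 4 to 6, with 4 when only the compared groups were fitted and 4 with DESeq2. Among the 16 genes that passed the filter without the double knockout libraries, the double knockout had 13 called against the knockout (12 to 13 under the alternatives) and 16 against wild type (16 in each). For the other genes tested, the filter passed them through the group where they are high. The difference between the knockout and C91A effects (1 gene) became 0 with only the compared groups in the fit and 0 with DESeq2, where 0 and 2 genes had an unadjusted p under 0.05, and leaving out 1 library gave 0 to 2. For the untreated knockout line against wild type (13) the count was 8 with only the compared groups, 7 with DESeq2 and 7 to 12 without 1 library. For the untreated C91A line against wild type (3) it was 0 with only the compared groups, 1 with DESeq2 and 1 to 3 without 1 library. Fits of the compared groups alone tested fewer HOX genes, 14 in place of 35 for the knockout, because the filter then saw no double knockout library. A fit that did not test a gene was not counted against its call. No paired analysis was possible because the labels carry no replicate numbers. With 222 to 758 HOX counts per library outside the double knockout, a gene with a handful of counts could not show a small change.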
